A study of Mus musculus with 3 samples.

Results

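Cytosolic ribosomal protein genes were read on 3 arrays, 1 from NIH3T3 cells stably overexpressing mtYAP, 1 from NIH3T3 cells stably overexpressing wild-type YAP and 1 from control NIH3T3 cells that were not transduced. NIH3T3 is an immortalized line of mouse fibroblasts of the NIH/Swiss strain. YAP is the transcriptional coactivator at the end of the Hippo pathway, and mtYAP carries alanine in place of serine 112, a site at which LATS kinases inhibit YAP. Both forms of mouse Yap were delivered by retrovirus and selected as stable lines, and all cells were grown with 10% serum. The paper presents the arrays as a way to explore growth that continues at confluence. The sources used here do not state the cell density at which the RNA for the arrays was taken. A member was any gene whose symbol is Rpl or Rps with a number and at most 1 further letter (a, x or l), Rplp0 to Rplp2, or Rpsa, and that is named alone by at least 1 probe set. There were 46 such genes of 18193, 24 of the large and 22 of the small subunit, read by 100 of 45037 probe sets. Of them 23 had 1 probe set and 23 had several, whose log2 levels were averaged. All 46 symbols were found unchanged in RefSeq, where 45 are protein coding and Rps4l is a transcribed pseudogene. A level of 6 or more was taken as clearly measured, and 41 of the 46 genes averaged that over the 3 arrays.

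The cytosolic ribosome translates nuclear mRNA. Its small subunit reads the mRNA and its large subunit joins the amino acids, and in growing cells the mRNAs of their proteins are among the most abundant. The proteins are needed in matched amounts, since nearly each is present once in a ribosome. Most mammalian ribosomal protein mRNAs start with a C followed by an unbroken run of pyrimidines, the terminal oligopyrimidine (TOP) tract, through which the mTORC1 kinase controls how strongly they are translated. Their level in RNA therefore does not give the amount of protein made.

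The start of transcription is shown for genes to which the results below return, 4 with a TOP-like tract and 4 without. Each window runs from 15 bases before the annotated RefSeq start (GRCm38.p6) to 15 bases after it and is printed 5′ to 3′ on the gene's strand. Capitals mark a run of at least 6 pyrimidines that begins with C.
Rpl35 (large subunit, chr2:39005117-39005146, minus strand): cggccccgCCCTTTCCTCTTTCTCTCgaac
Rpl14 (large subunit, chr9:120571502-120571531, plus strand): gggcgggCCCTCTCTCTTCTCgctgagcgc
Rps10 (small subunit, chr17:27635230-27635259, minus strand): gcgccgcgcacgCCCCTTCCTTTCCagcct
Rps9 (small subunit, chr7:3704026-3704055, plus strand): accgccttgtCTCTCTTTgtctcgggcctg
Rpl37a (large subunit, chr1:72711245-72711274, plus strand): ttccgctcgccggtctaaaaccgcgcatgc
Rpl37 (large subunit, chr15:5116598-5116627, plus strand): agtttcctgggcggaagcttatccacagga
Rps25 (small subunit, chr9:44407699-44407728, plus strand): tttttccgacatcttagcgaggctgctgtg
Rps4x (small subunit, chrX:102189377-102189406, minus strand): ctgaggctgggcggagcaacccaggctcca
Such a tract lay at the start of 24 of the 40 members found in the promoter table (60.0%) and of 6883 of all 27025 genes in it (25.5%). A window without one says only that these letters are not near this annotated start.

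The arrays themselves were on a common scale. Their medians were 4.57 in mtYAP and 4.56 in YAP, against 4.60 in control, and at the same rank among the 1000 brightest probe sets they differed by at most 0.15. RMA sets the distributions of the arrays nearly equal, so a change in total RNA per cell cannot be seen. The brightest probe set of a ribosomal protein gene stood at 13.80 in mtYAP and 14.01 in YAP, against 13.96 in control, close to the top of each array at 14.12 in mtYAP and 14.13 in YAP, against 14.08 in control. All 7 fibroblast markers reached a level of 6, and none of 5 embryonic stem cell, 4 epithelial, 3 leukocyte, 2 endothelial and 3 skeletal muscle markers did. That check was made because a free-text label of the control array mentions Max-null ES cells, while its other labels name NIH3T3. Most fibroblast markers were lower in the lines. All 7 were lower in mtYAP than in control, by a median log2 difference of −0.70, where 46.5% of all genes were lower. In YAP 5 of 7 were lower, with a median of −0.36 over the 7, where 50.2% of all genes were lower. Levels of the 7 spanned 7.07 to 12.76 in mtYAP and 8.59 to 13.09 in YAP, against 9.69 to 12.92 in control. The part of this in the ribosomal protein values was not tested. With 1 array per condition there is no error, SD or test for any difference between conditions.

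Ribosomal protein genes were slightly higher in mtYAP than in control, by a median log2 difference of 0.15, which is 1.11-fold. Of the 46 genes, 34 were above 0 (73.9%), against 51.8% of all 18193 genes, whose median was 0.02. Large differences were few: 4 genes passed 0.5 (8.7%), against 11.6% of all genes, and 0 were below −0.5, against 11.5%. No member was above 1 or below −1, limits passed by 3.77% and 4.06% of all genes. The members spanned −0.46 to 0.86.

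In YAP the median difference from control was also 0.15, and 35 of 46 genes were above 0 (76.1%), against 48% of all genes, whose median was 0.00. The other 11 were below 0, against 50.2%. Above 0.5 were 3 genes (6.52%), against 6.38% of all genes, and below −0.5 were 0, against 5.36%. The members spanned −0.33 to 1.00. The highest, Rpl14, stood at the 2-fold limit and not above it, and 1.36% of all genes were above 1, with 1.26% below −1. The same control array stands in both comparisons, so they are not independent. Since the cells were measured in bulk, fewer cells of a type and less RNA per cell cannot be told apart.

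Between the forms of YAP the genes lay close to 0. The median of mtYAP minus YAP was 0.02, beside 0.03 for all genes, with 25 members above 0 and 21 below, against 53.3% and 44.8% of all genes. Only Rpl12 passed 0.5 (5.45% of all genes did) and 0 were below −0.5 (6.57%). No member was above 1 or below −1, where 0.748% and 1.42% of all genes were.

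**Figure D1:**
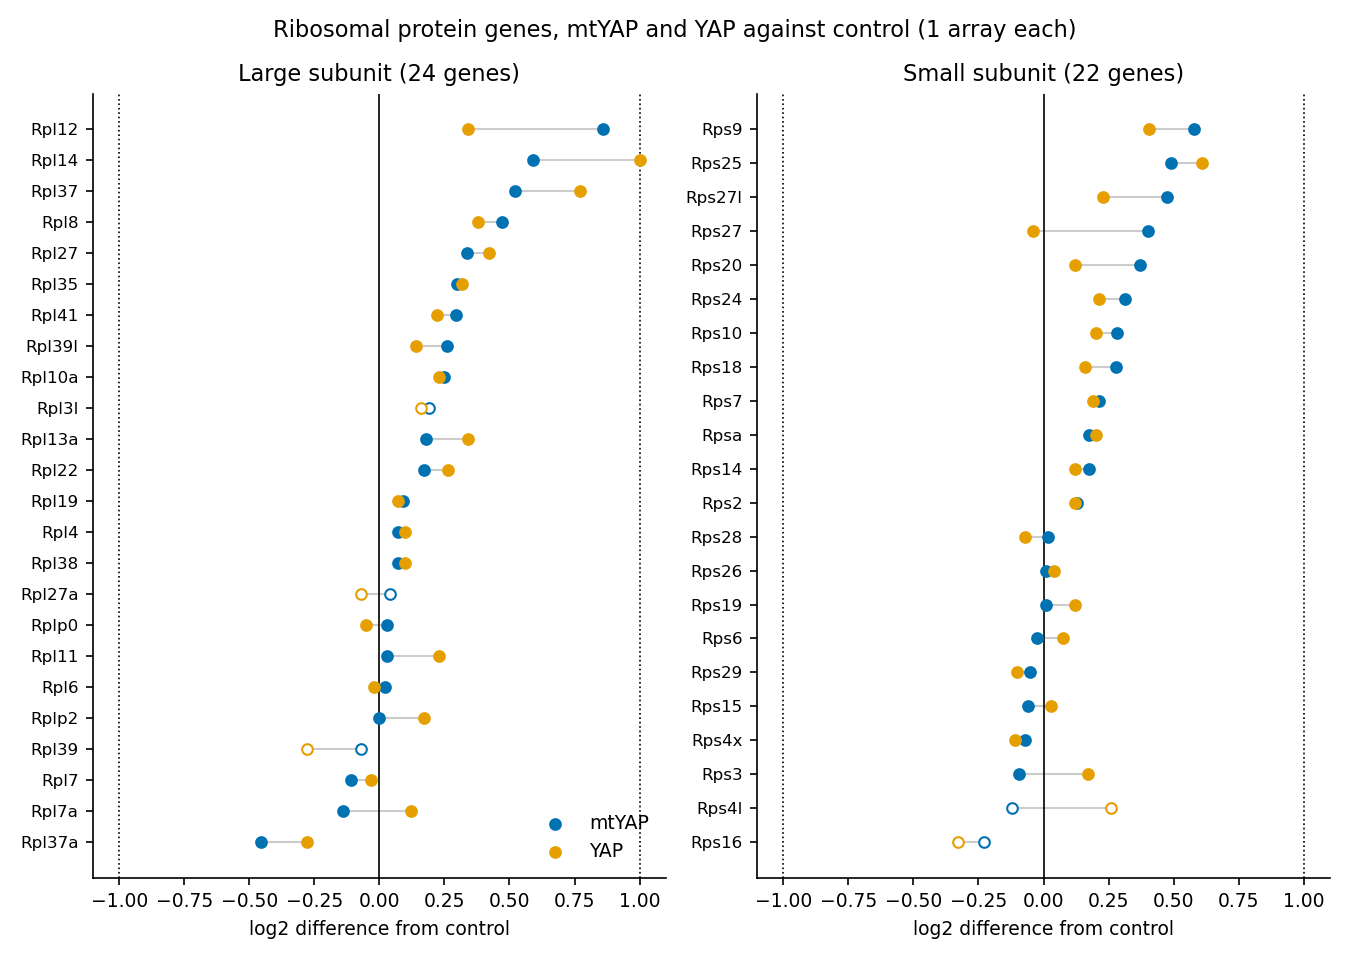
Log2 difference from control of each of the 46 genes in mtYAP (blue) and YAP (orange), 1 array each, by subunit and ordered by the mtYAP value. Open circles mark the 5 genes with a mean level below 6, and dotted lines mark 2-fold. Most points lie between 0 and 0.5, Rpl12 and Rpl14 lead the large subunit, Rps9 and Rps25 the small one, and Rpl37a is lowest among the genes with a mean level of 6 or more.

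These differences varied with the level at which a probe set reads. Of the members' probe sets, 61 had a mean level of 12 or more, and their median difference was 0.09 in mtYAP and 0.10 in YAP. The 8 probe sets from 10 to 12 had medians of 0.39 in mtYAP and 0.37 in YAP, and the 14 from 6 to 10 had 0.51 in mtYAP and 0.38 in YAP. Below 6, where 17 probe sets lay, the values were 0.17 in mtYAP and 0.16 in YAP. The median difference was thus smallest for the brightest probe sets. All probe sets of 1 gene symbol had medians between −0.02 and 0.09 in every such class of level. At 12 or more, where most of the members' probe sets lay, these medians were 0.06 in mtYAP and 0.09 in YAP. The members' 61 probe sets are among the 171 of that class, so its medians are not independent of theirs. Above 0 were 44 of the members' 61 in mtYAP and 46 in YAP, beside 99 and 108 of the 171.

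**Figure D2:**
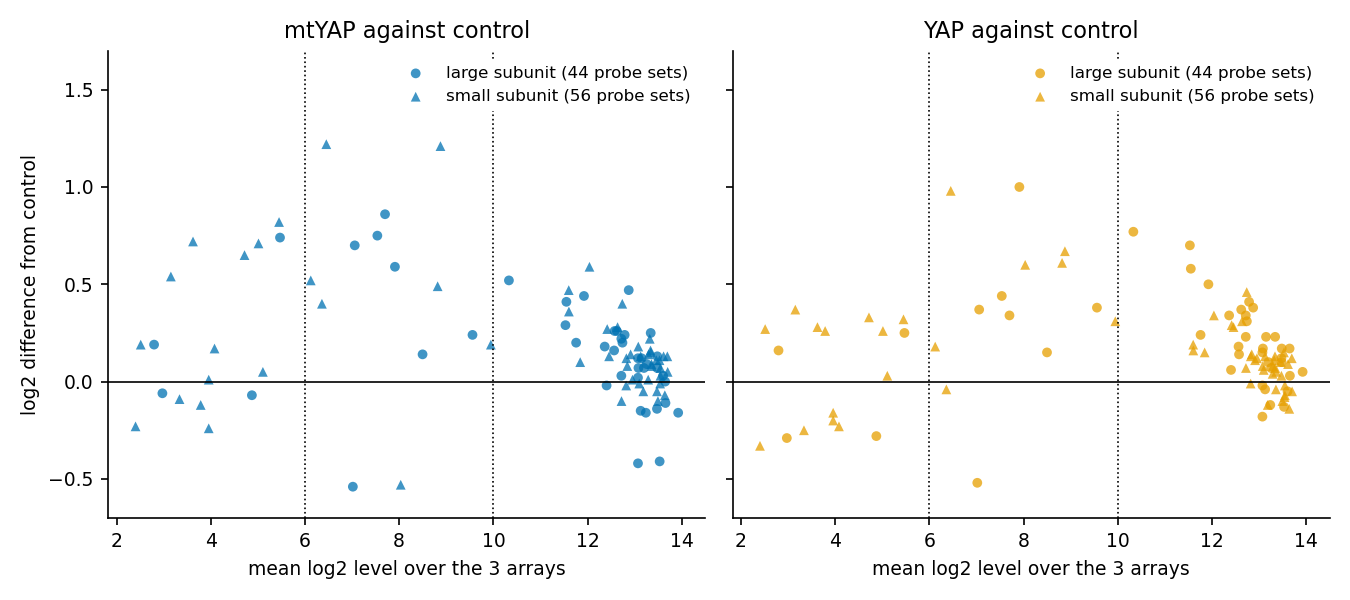
Log2 difference from control (vertical) of each of the 100 probe sets of ribosomal protein genes against its mean log2 level over the 3 arrays (horizontal), for mtYAP on the left and YAP on the right. Dotted lines stand at levels of 6 and 10. Probe sets at 12 or more gather near 0.1, and those from 6 to 10 spread from −0.54 to 1.22 in mtYAP and from −0.52 to 1.00 in YAP.

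A like pattern stood inside single genes. Probe sets on both sides of a level of 10 were present for 12 members, and the dimmer ones gave the higher difference in 9 of 12 for mtYAP and in 9 of 12 for YAP. Their median was 0.58 on the dim side and 0.10 on the bright side in mtYAP, and 0.28 on the dim side and 0.09 on the bright side in YAP. Rps10, a protein of the head of the small subunit, had 5 bright probe sets with differences of 0.10 to 0.40 in mtYAP and a dim one at 0.82. Rpl41, the shortest ribosomal protein, had bright probe sets at 13.80 and 13.57 in mtYAP and at 14.01 and 13.71 in YAP, against 13.96 and 13.68 in control. Its dim probe sets read 7.89 and 7.40 in mtYAP and 7.58 and 7.07 in YAP, against 7.14 and 6.70 in control, so the direction in mtYAP depended on the probe set. Rps9 and Rps24 were the 2 members whose probe sets differed by over 1 in mtYAP, and no member's did in YAP. Which transcripts the dim and bright probe sets read was not tested. Of the members' 100 probe sets, 69 are of the _a, _s or _x kinds, which can read more than 1 transcript, against 22.8% of all probe sets of 1 symbol.

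**Figure D3:**
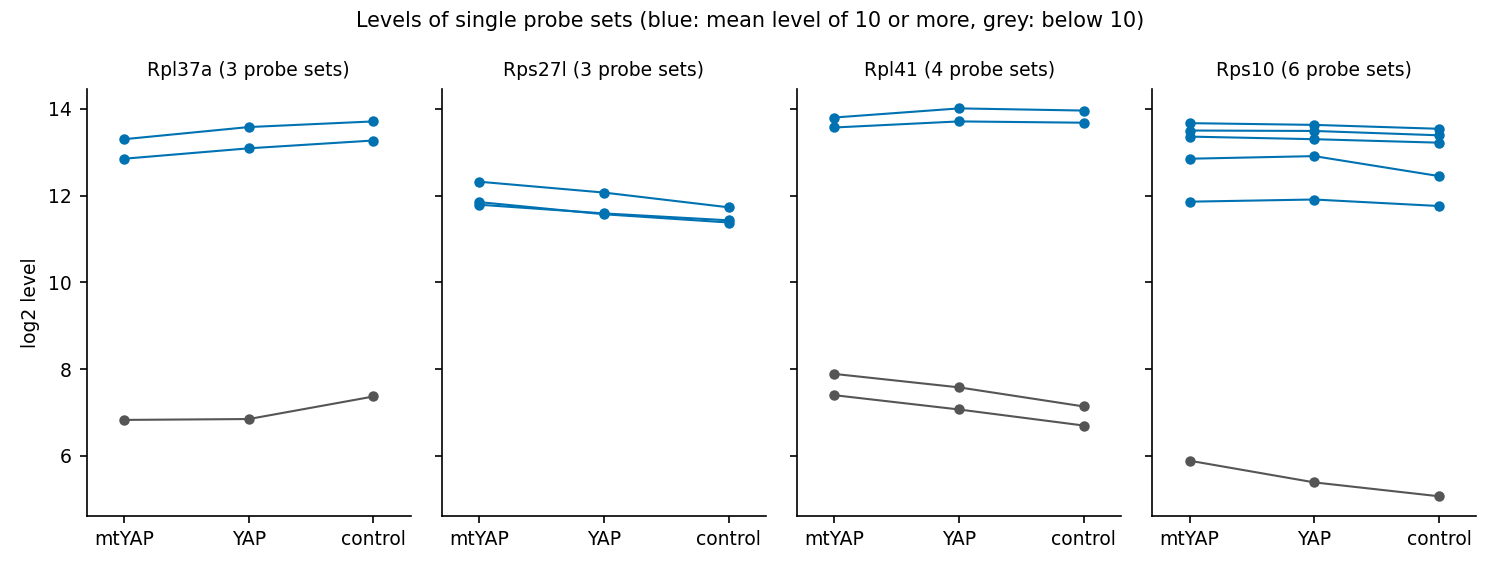
Log2 level of each probe set of Rpl37a, Rps27l, Rpl41 and Rps10 in mtYAP, YAP and control, 1 line per probe set, blue where its mean level is 10 or more and grey where it is lower. The 3 probe sets of Rpl37a are all lowest in mtYAP and highest in control, those of Rps27l run the other way, and the bright and dim lines of Rpl41 slope in opposite directions between mtYAP and control.

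Bright probe sets alone therefore give a second reading of the group. A probe set with a mean level of 10 or more was present for 36 members, and over them the median difference was 0.08 in mtYAP and 0.12 in YAP. Over all 1032 genes with such a probe set it was 0.05 in mtYAP and 0.07 in YAP. Of these 36 genes, 27 were above 0 in mtYAP, against 53.7% of the 1032 genes with such a probe set, and 29 were above 0 in YAP, against 56.5%, with the other 7 below 0, against 42.7%. Only Rpl37 was above 0.5 in either line, where 21.7% of the 1032 genes were in mtYAP and 15.5% in YAP, and 0 were below −0.5, against 17.2% in mtYAP and 7.46% in YAP. Bright probe sets of a single gene scattered with a pooled SD of 0.086 in mtYAP and 0.125 in YAP (17 members with 50 such probe sets). The SD between the 36 members was 0.183 in mtYAP and 0.171 in YAP. Probe sets of a gene share an array, so the scatter within genes is no measure of the spread between cultures.

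Among the large subunit proteins with the highest values, Rpl14, which has no bacterial counterpart, read 7.97 in mtYAP and 8.38 in YAP, against 7.38 in control. Its single probe set thus differed by 0.59 for mtYAP and 1.00 for YAP. Rpl12, which lies at the base of the stalk where elongation factors dock, read 8.16 in mtYAP and 7.64 in YAP, against 7.30 in control. It was the highest member in mtYAP, at 0.86 or 1.82-fold, also by a single probe set. The probe sets of Rpl14 and Rpl12 had mean levels of 7.91 and 7.70, and neither gene had a bright one. Member probe sets from 6 to 10, as given above, had medians of 0.51 in mtYAP and 0.38 in YAP. Rpl37, a small zinc-binding protein, read 10.42 in mtYAP and 10.67 in YAP, against 9.90 in control, and so differed by 0.52 in mtYAP and 0.77 in YAP. These 3 genes were higher in both lines, with Rpl12 higher in mtYAP than in YAP and the other two higher in YAP. Rpl27, another without a bacterial counterpart, had 3 bright probe sets, with differences of 0.16, 0.44 and 0.41 in mtYAP and 0.18, 0.50 and 0.58 in YAP. Rpl8, a core protein near the peptidyl transferase centre that was picked after its values were seen, read 13.06 in mtYAP and 12.97 in YAP, against 12.59 in control. Its difference of 0.47 in mtYAP was the largest among members whose probe sets all have a mean level of 12 or more.

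Rpl37a, a zinc-binding protein like Rpl37 and encoded by a different gene, went against the group. Its probe sets read 13.30, 12.85 and 6.83 in mtYAP and 13.58, 13.09 and 6.85 in YAP, against 13.71, 13.27 and 7.37 in control. All 3 were lower in both lines, with differences of −0.41, −0.42 and −0.54 in mtYAP and −0.13, −0.18 and −0.52 in YAP. The mean was −0.46 in mtYAP and −0.28 in YAP, and removing the trend of the difference with level gave −0.48 in mtYAP and −0.32 in YAP. Among members with a mean level of at least 6, the next lowest in mtYAP were Rpl7a and Rpl7, nearer to 0. Rpl7a, an RNA-binding protein of the large subunit, read 13.34 in mtYAP and 13.60 in YAP, against 13.48 in control. Rpl7, another conserved protein of the large subunit, averaged −0.11 for mtYAP and −0.03 for YAP, with all 3 of its probe sets below 0 in mtYAP.

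The stalk recruits the elongation factors, and 2 of its 3 proteins were measured. Rplp0, its base, read 13.64 in mtYAP and 13.56 in YAP, against 13.61 in control. Rplp2, an acidic protein bound to it, read 13.59 in mtYAP and 13.76 in YAP, against 13.59 in control. The stalk thus lay within 0.03 of control in mtYAP. Rpl11, which reaches the ribosome in a particle with 5S rRNA and can bind the p53 inhibitor Mdm2, read 12.66 in mtYAP and 12.86 in YAP, against 12.63 in control. At the tunnel through which the new chain leaves, 3 of 7 listed proteins were measured. Rpl19, which also reaches across to the small subunit, differed by 0.09 in mtYAP and 0.07 in YAP. Rpl35, at the mouth of the tunnel, differed by 0.30 in mtYAP and 0.32 in YAP. Rpl39, which lines the tunnel, had a mean level of only 4.87 and differed by −0.07 in mtYAP and −0.28 in YAP. Rpl35 averaged 6 probe sets, of which the 5 bright ones lay between 0.12 and 0.26 in mtYAP and the dim one at 0.74. Apart from the paralogs below, the 7 remaining large subunit members (Rpl4, Rpl6, Rpl10a, Rpl13a, Rpl22, Rpl38 and Rpl27a, the last with a mean level of 5.74) lay between 0.02 and 0.25 in mtYAP and between −0.07 and 0.34 in YAP.

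In the small subunit, the head holds the mRNA and the tRNAs at the decoding site, and 10 of 14 listed head proteins were measured. The median over them was 0.01 for mtYAP and 0.12 for YAP, and 6 of 10 were above 0 in mtYAP, near the 51.8% of all genes, and 7 of 10 in YAP, against 48%. For the 8 head genes with bright probe sets, the median over those probe sets was 0.04 in mtYAP and 0.06 in YAP. The highest was Rps25, which viruses need to start translation at internal entry sites. It read 8.94 in mtYAP and 9.06 in YAP, against 8.45 in control, which is 0.49 higher in mtYAP and 0.61 higher in YAP. Its single probe set had a mean level of 8.82, so no bright probe set read this gene. Rps20, Rps18 and Rps10 followed in mtYAP, at 0.37, 0.28 and 0.28, and stood at 0.12, 0.16 and 0.20 in YAP. Each of the 3 has dim probe sets with larger differences than its bright ones: over bright probe sets alone the values were 0.06 in mtYAP and −0.06 in YAP for Rps20, 0.12 in mtYAP and 0.09 in YAP for Rps18, and 0.18 in each line for Rps10. Rps20 was thus slightly below control in YAP by its bright probe sets. Rps19, the gene most often mutated in Diamond-Blackfan anaemia, differed by 0.01 in mtYAP and 0.12 in YAP. Rps15, whose tail reaches the decoding site, differed by −0.06 in mtYAP and 0.03 in YAP. Rps28, near the channel where the mRNA leaves, differed by 0.02 in mtYAP and −0.07 in YAP. Rps29, a zinc-binding head protein, differed by −0.05 in mtYAP and −0.10 in YAP. Rps16, which touches the tRNA, had a mean level of 2.40 and was not clearly measured, with differences of −0.23 for mtYAP and −0.33 for YAP. Rps3, at the mouth of the mRNA channel, averaged −0.09 for mtYAP and 0.17 for YAP. Of its 3 probe sets, 2 had opposite signs in the lines, and the bright one read 12.85 in mtYAP and 12.91 in YAP, against 12.77 in control.

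The body and platform carry the rest of the small subunit, and 10 of 16 listed proteins were measured. Over these the median stood at 0.18 for mtYAP and 0.12 for YAP, with 8 of 10 above 0 in each, against 51.8% of all genes in mtYAP and 48% in YAP. For the 8 of them with bright probe sets, the median over those probe sets was 0.145 in mtYAP and 0.12 in YAP. Rps9, at the entry of the mRNA channel, was highest at 0.58 in mtYAP and 0.41 in YAP. That mean rested on dim probe sets, which read 6.94 and 6.41 in mtYAP and 6.70 and 6.07 in YAP, against 5.72 and 5.89 in control. Its bright probe set read 13.07 in mtYAP and 13.14 in YAP, against 13.08 in control, and so did not show the difference. Rps24, another gene of Diamond-Blackfan anaemia, had 4 bright probe sets with differences of 0.12 to 0.27 in mtYAP and 0.11 to 0.29 in YAP. Another at a mean level of 8.88 stood at 1.21 in mtYAP and 0.67 in YAP. Rps6, the target of the S6 kinases downstream of mTORC1, averaged −0.03 for mtYAP and 0.08 for YAP over 2 probe sets. The clearly measured one read 9.97 in mtYAP and 10.09 in YAP, against 9.78 in control, and was higher in both lines, while the other has a mean level of 3.96. Rps7, which is needed to mature the rRNA of the small subunit, differed by 0.22 in mtYAP and 0.19 in YAP. Rps14, on the platform, stood at 0.18 for mtYAP and 0.12 for YAP. Rpsa, also known as the laminin receptor, stood at 0.18 for mtYAP and 0.20 for YAP over 2 probe sets. Its bright one stood at 0.16 for mtYAP and 0.13 for YAP, while the other has a mean level of 2.51. Rps2, near the entry of the mRNA channel, had a single bright probe set at 0.13 for mtYAP and 0.12 for YAP. Rps26, near its exit, had one at 0.01 for mtYAP and 0.04 for YAP. Rps4x, an X-linked protein of the body, was lower at −0.07 in mtYAP and −0.11 in YAP, although its bright probe set read 13.43 in mtYAP and 13.51 in YAP, against 13.48 in control.

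Several ribosomal proteins have a second gene whose product can take the place of the main one. Rps27l, a close paralog of Rps27 that p53 activates in human cells, was read by 3 bright probe sets at 12.32, 11.79 and 11.85 in mtYAP and 12.07, 11.59 and 11.57 in YAP, against 11.73, 11.43 and 11.38 in control. Every one of the 3 was highest in mtYAP and lowest in control, with mean differences of 0.47 in mtYAP and 0.23 in YAP. With the trend on level removed they were 0.45 in mtYAP and 0.18 in YAP. Rps27 itself read 6.64 in mtYAP and 6.20 in YAP, against 6.24 in control, and differed by 0.40 in mtYAP and −0.04 in YAP. Its single probe set had a mean level of 6.36, so no bright one read this gene. At levels from 6 to 10 the medians of member probe sets were 0.51 in mtYAP and 0.38 in YAP. Rpl39l, a paralog of Rpl39 best known from testis, read 12.70 in mtYAP and 12.58 in YAP, against 12.44 in control. Rpl3l, the paralog of Rpl3 used in heart and skeletal muscle, stood at 2.87 in mtYAP and 2.84 in YAP, against 2.68 in control, and Rps4l had a mean level of 3.79, so neither was clearly measured. These paralogs can be close enough in sequence for their probes to read the main gene too, which was not tested.

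The large and small subunits were set side by side. Against control, the median of the large subunit was 0.13 in mtYAP, with 19 of 24 genes above 0, and that of the small subunit was 0.15, with 15 of 22, against 51.8% of all genes. In YAP the medians were 0.17 for the large subunit, with 18 of 24 above 0, and 0.12 for the small subunit, with 17 of 22, against 48% of all genes. Large minus small was −0.02 in mtYAP and 0.05 in YAP, and between the forms of YAP it was −0.07. Over bright probe sets, 13 of 19 large subunit genes were lower in mtYAP than in YAP (68.4%) and 7 of 17 small subunit genes were (41.2%, with 1 equal), beside 54.7% of the 1032 genes. Higher in mtYAP were 6 of 19 large and 9 of 17 small subunit genes, beside 44.2%, and none of the 36 was above 0.5 or below −0.5, limits passed by 6.3% and 10.1% of the 1032 genes. The median of mtYAP minus YAP was −0.08 for the large and 0.01 for the small subunit. The lowest large subunit genes were Rpl37a and Rpl7a at −0.26 each, Rpl37 at −0.25 and Rpl11 at −0.20, and the highest small subunit genes were Rps27l at 0.24 and Rps20 at 0.12. Large minus small for mtYAP minus YAP thus depended on the probe sets used: it was −0.09 over bright ones and −0.005 without the _s, _x and _a kinds, while against control the same omission gave −0.19 in mtYAP. Genes with a mean level of at least 6 gave 0.10 in YAP against control. Whether any of these gaps exceeds the spread between cultures cannot be told from 1 array each.

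**Figure D4:**
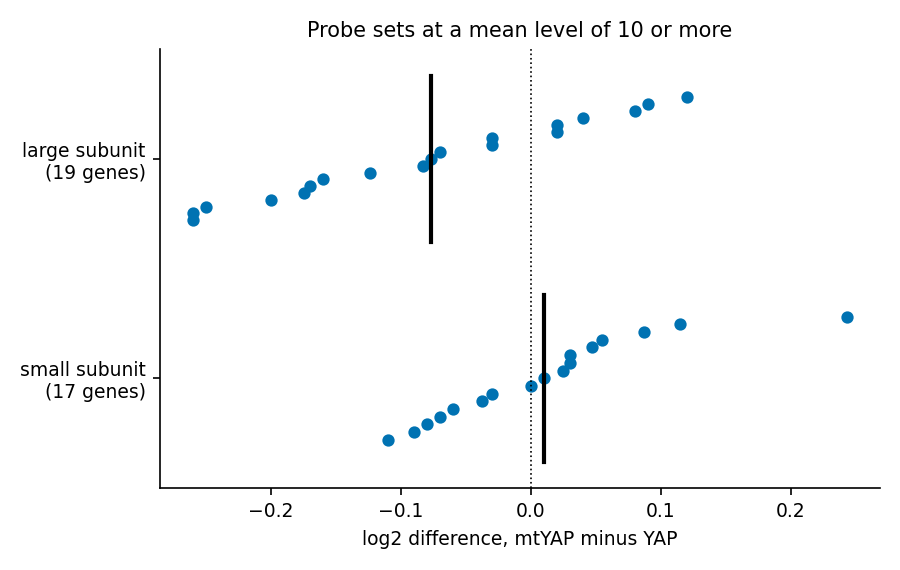
Log2 difference of mtYAP minus YAP for the 36 genes with probe sets at a mean level of 10 or more, 1 point per gene, with the 19 large subunit genes above and the 17 small subunit genes below. Bars mark the medians of −0.08 (large) and 0.01 (small). The 2 sets overlap, and 13 large against 7 small subunit genes lie below 0.

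Many ribosomal protein probe sets could not be assigned to a single gene. Of them 110 list a ribosomal protein gene among several, and they bring in 26 further genes with no probe set of their own. The median of those 26 genes was 0.10 in mtYAP and 0.13 in YAP. With them and with shared probe sets kept for the members, the median over 72 genes was 0.12 for mtYAP and 0.13 for YAP. Above 0 were 55 of the 72 in mtYAP, against 51.8% of all 18193 genes, and 57 in YAP, against 48%. The median of all 18193 genes was 0.02 in mtYAP and 0.00 in YAP. Since these values read unknown mixtures of genes and pseudogenes, no gene is named from them.

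Genes that build the ribosome were also higher than control. All 26 listed ribosome assembly genes, which act in making rRNA and joining it to protein, were above 0 in both lines (51.8% of all genes in mtYAP and 48% in YAP), and their median was 1.02 for mtYAP and 0.53 for YAP. Above 1 were 13 of 26 in mtYAP, against 3.77% of all genes, and 5 of 26 in YAP, against 1.36%. They read at mean levels of 4.68 to 10.26, below most ribosomal protein probe sets. Ribosomal protein probe sets from 6 to 10, as given above, had medians of 0.51 in mtYAP and 0.38 in YAP. Dkc1, the pseudouridine synthase of the H/ACA particles, differed by 2.48 in mtYAP and 1.40 in YAP. Nop58, a core protein of the C/D particles that methylate rRNA, differed by 2.11 in mtYAP and 1.16 in YAP. Mitochondrial ribosomal proteins, which build the separate ribosome of that organelle, stood at a median of 0.30 for mtYAP and 0.13 for YAP, and 61 of 76 genes were above 0 in mtYAP (51.8% of all genes) and 46 in YAP (48%). Of 15 other translation genes whose mRNAs are known to carry a TOP tract, 11 were above 0 in mtYAP and 12 in YAP, beside the same shares of all genes, and the median was 0.17 for mtYAP and 0.22 for YAP. Among them Eef1a1, the most abundant elongation factor, read 13.86 in mtYAP and 13.88 in YAP, against 13.96 in control, while Npm1, a nucleolar chaperone, differed by 0.51 in mtYAP and 0.47 in YAP. Ribosomal proteins whose symbols fall outside the pattern were measured for 4 genes. Rpl22l1 and Rpl7l1, paralogs of Rpl22 and Rpl7, differed by 0.51 and 0.56 in mtYAP and by 0.43 and 0.25 in YAP. Fau and Rps3a1, which encode main proteins of the small subunit, differed by −0.07 and −0.09 in mtYAP and by 0.08 and −0.09 in YAP.

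**Figure D5:**
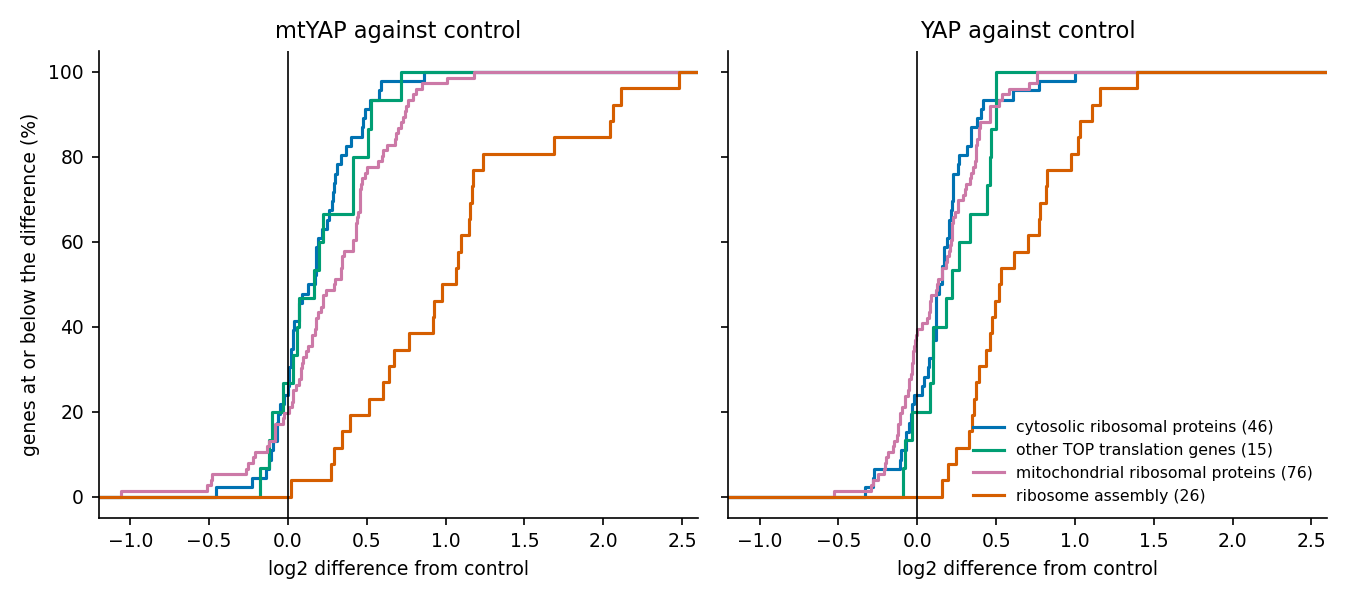
Cumulative share of genes (vertical, percent) at or below each log2 difference from control (horizontal) for 46 cytosolic ribosomal protein genes, 15 other TOP translation genes, 76 mitochondrial ribosomal protein genes and 26 ribosome assembly genes, mtYAP on the left and YAP on the right. The curve of the ribosomal proteins is steep and stays near 0, with medians of 0.15 in both lines, while that of ribosome assembly is shifted, at 1.02 for mtYAP and 0.53 for YAP.

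The sequences at the start were last set against the values. The median over the 24 members with a tract was 0.16 for mtYAP and 0.13 for YAP, and over the 16 without one it was 0.10 for mtYAP and 0.18 for YAP. Both sets held high and low members: Rpl14 and Rps9 carry a tract, as printed above, and so does Rpl7a, which was low in mtYAP, while Rpl37 and Rps25 do not, and neither do the low Rpl37a and Rps4x. In the 300 bases around the start, the motif CCGGAAG, a binding sequence of ETS factors such as GABPA, was found on either strand in 20 of 40 members (50%) and 9.93% of all genes. AAGATGG, the core of the YY1 motif, was found in 7 of 40 (17.5%) and 7.28% of all genes. CACGTG, the E-box that MYC with MAX binds, was found in 4 of 40 members (10.0%) and 8.09% of all genes, and the 4 had a median of 0.14 for mtYAP and 0.23 for YAP. CATTCC, the core motif of the TEAD factors through which YAP reaches DNA, was found in 5 of 40 (12.5%) and 16.6% of all genes. CCGGAAG ends with the letters that begin AAGATGG and begins with those that end CATTCC, so neighbouring matches can overlap, and a match describes the letters only.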

How the data were processed

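RNA from 3 samples, 1 each of mtYAP, YAP and control NIH3T3 cells, was hybridized as biotin-labelled cRNA to Affymetrix GeneChip Mouse Genome arrays. The authors subtracted background and normalized by the robust multiarray analysis method (RMA, with affy named in the submitters' processing notes), and the deposited log2 levels per probe set, rounded to 2 decimals, were used as they stand. The sources used here do not give software versions or which arrays were normalized together. Precision is limited by the number of arrays. The platform annotation names the probe sets: 34945 have 1 symbol and were used, 932 have several and 9160 none. Probe sets of a gene were averaged, and differences between arrays were taken as mtYAP minus control, YAP minus control and mtYAP minus YAP. With single arrays no test was possible, and counts are given beside those of all genes. The arithmetic was tested on simulated data. Members, lists and limits were chosen with earlier results of these data known, and the split of probe sets at a level of 10 was added after seeing the data. Named genes are the 5 highest and 5 lowest members of each comparison with control at a mean level of at least 6, the listed members by role, and members whose probe sets differ by over 1. Rpl8, Rpl22l1 and others named outside that rule were chosen after their values were seen, or belong to the comparison lists. Promoter windows came from a RefSeq table (GRCm38.p6) that held 40 of the 46 members. Python 3.11.15 with pandas 2.3.3, numpy 2.4.6, statsmodels 0.14.6 and matplotlib 3.10.9 was used.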

Additional observations from a re-analysis of the deposited data

Results flagged for a closer look

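A probe set of Rps3 with a mean level of 8.03 moved in opposite directions in the lines. It read 7.48 in mtYAP and 8.61 in YAP, against 8.01 in control, so that mtYAP was lower by a log2 difference of −0.53 and YAP higher by 0.60. The bright probe set of the same gene stood at 0.08 for mtYAP and 0.14 for YAP, and the third, at a mean level of 4.08, at 0.17 for mtYAP and −0.23 for YAP. The difference between the lines was not tested, since each has 1 array.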

How the results depend on the processing

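The 12 summaries of the ribosomal protein genes were recomputed under 11 alternatives, 2 of them chosen after seeing the data (probe sets at a level of at least 10, and the removal of Rps4l with the paralogs). Of 132 values, 107 stayed within the tolerance, which is 0.1 for a median and 1.5 times for a count, and 25 did not. A tolerance of 0.1 is wide for these medians: 8 of them within it changed sign, 6 for the median of mtYAP minus YAP (down to −0.03) and 1 each for large minus small subunit in mtYAP minus control (0.005) and YAP minus control (−0.015). The median ranged from 0.08 to 0.20 in mtYAP minus control, from 0.10 to 0.18 in YAP minus control and from −0.03 to 0.10 in mtYAP minus YAP. Large minus small subunit was −0.19 in mtYAP minus control without the _s, _x and _a kinds of probe set. Apart from the removal of the median difference, the alternatives that moved a count also changed the number of items. In mtYAP minus control the count above 0, 34 of 46 with the main settings, was 75 of 100 with probe sets taken singly. It was 19 of 25 without the _s, _x and _a kinds and 55 of 72 with shared probe sets kept. In YAP minus control it went from 35 of 46 to 76 of 100, 19 of 25 and 57 of 72. Of all genes, 51.8% were above 0 in mtYAP minus control and 48% in YAP minus control. In mtYAP minus YAP it was 25 of 46 with the main settings and 47 of 100 with probe sets taken singly. Without those kinds it was 16 of 25. Limited to a level of at least 10, it was 15 of 30 by genes and 15 of 36 by probe sets. Of all genes 53.3% were above 0, and of the 1032 genes with a bright probe set 44.2% were. Beyond 0.5 in either direction, mtYAP minus control held 4 of 46 genes with the main settings and 17 of 100 probe sets taken singly. It held 8 of 25 genes without those kinds and 2 of 72 with shared probe sets kept. The limits of 10 left 1 of 30 and 1 of 36. Of all genes, 11.6% were above 0.5 and 11.5% below −0.5. YAP minus control held 3 of 46 genes with the main settings and 9 of 100 probe sets taken singly. With shared probe sets kept it held 0 of 72 genes, and the limits of 10 left 1 of 30 and 1 of 36. Of all genes, 6.38% were above 0.5 and 5.36% below −0.5. mtYAP minus YAP held 1 of 46 genes with the main settings and 3 of 100 probe sets taken singly. It held 0 genes with shared probe sets kept, under each limit of 10 and with the median of all genes removed. Of all genes, 5.45% were above 0.5 and 6.57% below −0.5. No paired analysis was possible because each condition has 1 array, and no array could be left out. Probe sets below a level of 6 and those near the top of the range limit what small differences can show.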

Other observations

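Genes often used to scale expression measurements covered a wider range than the ribosomal proteins. Of 9 such genes 7 were measured, with medians of −0.21 for mtYAP and −0.01 for YAP against control. Hprt, of purine salvage, differed by 1.22 in mtYAP and 0.84 in YAP, while Gusb, a lysosomal enzyme, differed by −1.1 in mtYAP and −0.85 in YAP. Averaged over all probe sets, as those 7 were, the 46 ribosomal protein genes spanned −0.46 to 0.86 in mtYAP and −0.33 to 1.00 in YAP. Averaged over bright probe sets only, the 36 with any spanned −0.42 to 0.52 in mtYAP and −0.16 to 0.77 in YAP.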
